A study of Mus musculus with 20 samples.

Results

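The 38 genes described here are the messenger RNAs of the integrated stress response and of the amino acid supply that it controls. They were taken by gene name from the deposited expression table, and a name was kept where its level was at least 1 FPKM (fragments for each kilobase of gene length, relative to library depth) in at least 5 of the 20 libraries. All 38 of 38 names were kept, among 12752 genes that passed that limit and 54532 genes in the table. Ddit3 has a second record with a length of 105 bases that is listed at 0 in every library, and that record was left out. RNA came from articular chondrocytes, the cells that make and keep joint cartilage, of mice aged 6 weeks. The cells had 48 hours of DMSO (the Vehicle group), of 20 µM 25-hydroxycholesterol (25HC), of 20 µM 25-hydroxycholesterol-3-sulfate (25HC3S) or of 2 µM GW3965; each of the 4 groups has 5 libraries. 25HC is a cholesterol molecule with an added hydroxyl group, 25HC3S is its sulfate ester, and GW3965 is a synthetic compound that activates liver X receptors. The sources used here give no strain, sex or number of animals, and p-values rest on the variation among libraries, part of which can be technical.

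In the integrated stress response, several kinases, which sense unfolded protein, missing amino acids, double-stranded RNA or missing haem, phosphorylate the translation factor eIF2. General protein synthesis then falls while the messenger RNA of the transcription factor Atf4 is translated better, and Atf4 switches on genes for amino acid uptake and synthesis, for tRNA charging and for feedback on the pathway itself. Chondrocytes secrete large amounts of matrix protein and are known to use this pathway in cartilage development and in cartilage diseases with misfolded collagen. RNA levels do not show eIF2 phosphorylation or the amount of Atf4 protein.

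Of the libraries, 4 stood apart: Vehicle replicates 2, 3 and 4 and 25HC3S replicate 1. Fragments in genes were between 14653777 and 19365220 per library. Genes with exactly 1 fragment numbered 237 to 1171 in these 4 libraries and 1808 to 2057 in the other 16. Mitochondrial genes held 3.14% to 4.07% of fragments in Vehicle replicates 3 and 4 and 25HC3S replicate 1, 0.369% in Vehicle replicate 2, and 0.889% to 1.41% in the other 16. The cartilage markers were present everywhere: all 14 listed chondrocyte genes passed the expression limit, with summed levels of 1824 to 5337 FPKM in Vehicle and 4044 to 4991 FPKM with GW3965. In bulk RNA, fewer cells of a type and less RNA per cell cannot be told apart. Macrophage markers were present as well, with all 12 above the limit and sums of 467 to 1105 FPKM in Vehicle, 771 to 1095 FPKM with 25HC, 411 to 794 FPKM with 25HC3S and 966 to 1123 FPKM with GW3965. Of the listed markers of fibroblasts and synovium 8 of 9 passed the limit, with sums of 3687 to 8844 FPKM in Vehicle and 4235 to 5503 FPKM in the other groups. Fewer passed for endothelium (2 of 5), skeletal muscle (2 of 5), adipocytes (3 of 5) and osteoblasts (4 of 6), and none of 8 for red cells and neutrophils, with Hbb-bs, Hba-a1 and Hba-a2 at 0 throughout. The counts of called members below are therefore given for all 20 libraries and for the 16 left without these 4, where Vehicle has 2 libraries and 25HC3S has 4.

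The short DNA element through which Atf4 and its C/EBP partners act, the CARE element TGATGNAA (N is any base), was looked for on both strands of the 250 bases before each RefSeq gene start (build GRCm38.p6). A RefSeq promoter was at hand for 32 of the 38 members, and 10 of these 32 (31.3%) held the element, against 3.91% of 27025 promoters of all genes and 2.37% of 9141 promoters of tested genes. The members were picked as genes of the pathway that acts through this element, so the excess follows from the choice and is only described. Atf4, Ddit4 and Slc3a2, in which every GW3965 library lay above every other library, held no element in this window. The sites below include those of Atf3, Nupr1 and Fgf21, in which the same separation held. The others are of Asns, in which it held only in the 16 libraries, and of Chac1 and Pycr1, which were called in no comparison. Capitals mark the element, read 5′ to 3′ on the strand of the gene, so an element on the other strand reads TTGCATCA here.
Atf3: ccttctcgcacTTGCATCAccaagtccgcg
Nupr1: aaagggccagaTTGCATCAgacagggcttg
Fgf21: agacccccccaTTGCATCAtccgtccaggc
Asns: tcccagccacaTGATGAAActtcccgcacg
Chac1: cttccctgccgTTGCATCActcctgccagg
Pycr1: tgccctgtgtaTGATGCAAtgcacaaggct
These windows are at chr1:191183425-191183454 (minus strand), chr7:126625562-126625591 (minus strand), chr7:45615611-45615640 (minus strand), chr6:7693214-7693243 (minus strand), chr2:119351038-119351067 (plus strand) and chr11:120643833-120643862 (minus strand). The RefSeq starts of Atf3 and Nupr1 lie inside the gene span of the deposited table, so other starts of these genes were not searched. With the 16 libraries, 4 of the 10 members with the element and 11 of the 22 without it were called higher with GW3965 than with 25HC, and with all 20 libraries 3 of 10 and 6 of 22 were called higher than Vehicle. A match is a stretch of letters and shows no binding, and no match says only that these letters are not in this window.

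GW3965 gave the clearest pattern. With all 20 libraries, 13 of the 38 members were called higher with GW3965 than with Vehicle and 0 lower, called meaning an adjusted p under 0.05 in limma over all tested genes. The background for that comparison was 6.46% of the tested genes in either direction and 3.49% higher. The median difference of the members was 0.44 on the scale of log2(FPKM + 1), against 0.02 over all tested genes, and 32 of the 38 were positive. Without the 4 libraries, 18 members were called higher and 0 lower, where 7.77% of tested genes were called and 3.98% were higher. The members' median was then 0.19 against 0.01, with 35 of 38 positive. Leaving the libraries out thus raised the number of calls and lowered the median. Fitted on the 10 libraries of these 2 groups alone, limma called 0 of the 38 members and 1.19% of tested genes, and 21 members had an unadjusted p under 0.05. Without Vehicle replicate 1, so that 3 of the 4 Vehicle libraries were ones that stand apart, 22 members and 25.5% of tested genes were called. Without Vehicle replicate 5 it was 21 members and 23.5% of tested genes.

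GW3965 was also compared with both oxysterols, although its dose of 2 µM differed from their 20 µM. Against 25HC, 0 of 38 members were called with all libraries, where 1.74% of tested genes were, and 8 had an unadjusted p under 0.05 in limma. The left-out libraries are in neither group, so the differences themselves are the same in both fits and only the shared estimate of the spread changed. With the 16 libraries, 21 members were called against 25HC, 20 of them higher and 1 lower, where 13.1% of tested genes were called and 6.3% were higher. Against 25HC3S, 2 members were called with all libraries, both higher (Atf3 and Slc7a3), where 4.63% of tested genes were called and 2.51% were higher. With the 16 libraries, 18 were called higher and 1 lower against 25HC3S, where 17.9% of tested genes were called and 9.27% were higher. A fit on the 10 libraries of GW3965 and 25HC alone, none of which stands apart, called 20 members and 11.2% of tested genes; one on the 10 libraries of GW3965 and 25HC3S called 7 members and 7.91% of tested genes. Slc7a3 lost its call against 25HC3S when 25HC3S replicate 1 or GW3965 replicate 2, 3 or 4 was left out of the 20 libraries, which left Atf3 alone. With all 20 libraries the differences from 25HC3S were 0.25 for Atf4, 0.64 for Nupr1, 0.37 for Trib3, 0.72 for Ddit4, 0.13 for Sars and 0.94 for Fgf21, none of them called. The 3 comparisons of GW3965 share its 5 libraries and are not independent of each other.

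**Figure D1:**
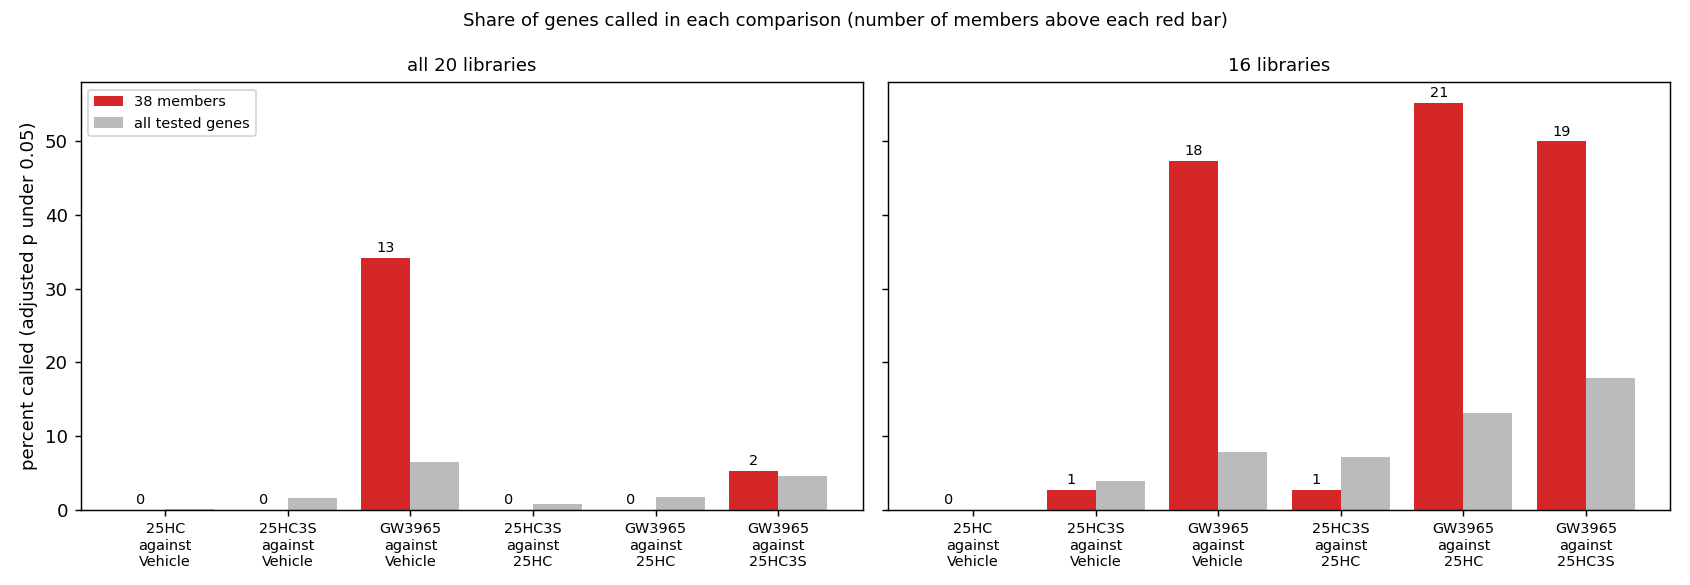
Percent of genes called (adjusted p under 0.05, limma) in each of the 6 comparisons, for the 38 members (red, with their number above the bar) and for all 12752 tested genes (grey), with all 20 libraries on the left and 16 on the right. The comparisons of GW3965 with 16 libraries reach 18, 21 and 19 members.

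Counted library by library, all 5 GW3965 libraries lay above all 15 others in 9 of the 38 members, against 1.64% of tested genes. These 9 were Atf4, Atf3, Nupr1, Ddit4, Cth, Slc7a5, Slc3a2, Slc7a3 and Fgf21. Against the 11 others that were left without the 4 libraries, it was 13 members, the former 9 with Asns, Psph, Nars and Wars, where the background was 3.05%. No member had all 5 GW3965 libraries below the 11 others. The share of tested genes that did was not counted, so nothing is read from this. Summed chondrocyte markers, at 4044 to 4991 FPKM with GW3965, overlapped the 3834 to 4212 FPKM with 25HC at their lower end, and summed macrophage markers at 966 to 1123 FPKM lay above the 411 to 794 FPKM with 25HC3S; their part in the result was not tested.

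Among the 8 regulators, Atf4, Atf3 and Nupr1 were called higher with GW3965 than with Vehicle, both with all libraries and without the 4. Atf4 (chr15:80255184-80257541, plus strand, as in the deposited table and in GRCm38), the transcription factor at the centre of the pathway, was at 146, 135, 139, 139.7 and 137 FPKM with GW3965 and at 126, 119, 124, 118 and 119 FPKM with 25HC, replicates 1 to 5 in each. It was at 84.2, 124, 127, 128 and 128 FPKM with 25HC3S and at 115, 108, 61.1, 65.3 and 107 FPKM in Vehicle. The lowest GW3965 library lay above the highest of the other 15, and the 3 lowest values were Vehicle replicates 3 and 4 and 25HC3S replicate 1. The group means were 139 ± 3.97 (SD, n = 5) FPKM with GW3965, 121 ± 3.57 (SD, n = 5) FPKM with 25HC, 127 ± 2.15 (SD, n = 4) FPKM with 25HC3S and 111 ± 5.31 (SD, n = 2) FPKM in Vehicle, the last 2 without the libraries that stand apart. GW3965 exceeded Vehicle by 0.65 ± 0.15 (SE, adjusted p = 0.016) on the log2 scale with all libraries and by 0.32 ± 0.04 (SE, adjusted p = 4.5e-05) without the 4. In the 16 libraries the difference was 0.20 ± 0.03 (SE, adjusted p = 0.00018) against 25HC and 0.13 ± 0.03 (SE, adjusted p = 0.0056) against 25HC3S.

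Atf3 (chr1:191170296-191218039, minus strand), a stress-induced transcription factor that Atf4 can switch on, was called in 4 of the 6 comparisons in the 16 libraries. It was at 12.4, 10.4, 12.5, 12.9 and 12.0 FPKM with GW3965, 7.96, 7.65, 8.71, 7.96 and 8.44 FPKM with 25HC, 3.34, 6.37, 6.54, 7.11 and 6.36 FPKM with 25HC3S and 6.88, 8.63, 3.17, 4.18 and 7.66 FPKM in Vehicle. Every GW3965 library was above every other library, and without the left-out libraries the 4 with 25HC3S were all below the 5 with 25HC. GW3965 exceeded Vehicle by 0.94 ± 0.19 (SE, adjusted p = 0.0053) with all libraries and by 0.66 ± 0.07 (SE, adjusted p = 2.0e-05) without the 4. It exceeded 25HC by 0.51 ± 0.05 (SE, adjusted p = 7.4e-06) and 25HC3S by 0.78 ± 0.06 (SE, adjusted p = 7.4e-08) in the 16.

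Nupr1, a small stress-induced chromatin-associated protein, was at 67.8, 67.2, 61.3, 63.7 and 68.3 FPKM with GW3965 and 51.7, 51.5, 45.1, 44.7 and 43.4 FPKM with 25HC. It was at 24.2, 49.8, 47.6, 50.9 and 43.5 FPKM with 25HC3S and 51.6, 46.8, 10.1, 13.9 and 51.0 FPKM in Vehicle. All 5 GW3965 libraries were above the rest, while Vehicle replicates 3 and 4 were far below the other Vehicle libraries. The difference from Vehicle was 1.18 ± 0.35 (SE, adjusted p = 0.048) with all libraries and 0.35 ± 0.07 (SE, adjusted p = 0.0063) without the 4, and the first call was lost with a pseudocount of 0.1. In the 16 libraries it was above 25HC by 0.47 ± 0.05 (SE, adjusted p = 2.5e-05) and above 25HC3S by 0.45 ± 0.06 (SE, adjusted p = 4.1e-05).

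Ddit3 (also called CHOP), a transcription factor that can lead stressed cells to death, was not called in any of the 6 comparisons with either set of libraries. It was at 76.6, 72.6, 66.2, 68.0 and 61.6 FPKM with GW3965, 67.3, 67.0, 60.9, 56.6 and 58.7 FPKM with 25HC, 34.1, 68.4, 61.3, 63.0 and 58.6 FPKM with 25HC3S and 61.1, 44.1, 20.2, 14.5 and 61.8 FPKM in Vehicle. The groups overlapped once Vehicle replicates 2, 3 and 4 and 25HC3S replicate 1 were set aside, and the difference of GW3965 from Vehicle went from 0.97 ± 0.30 (SE, adjusted p = 0.058) to 0.16 ± 0.08 (SE, adjusted p = 0.29). Ddit3 overlaps Mars, which lies on the opposite strand at a mean of 33.9 FPKM, and the strand setting of the counting is unknown here. Trib3, a pseudokinase that restrains Atf4, was at 75.6, 70.6, 67.6, 68.5 and 63.2 FPKM with GW3965, 67.5, 62.6, 62.0, 59.9 and 57.5 FPKM with 25HC, 34.8, 60.4, 57.4, 58.3 and 59.5 FPKM with 25HC3S and 63.1, 69.4, 22.8, 29.9 and 57.9 FPKM in Vehicle. Its GW3965 level overlapped that of 25HC and was called higher in the 16 libraries, by 0.16 ± 0.05 (SE, adjusted p = 0.040) against 25HC and 0.22 ± 0.05 (SE, adjusted p = 0.0048) against 25HC3S; against Vehicle it was 0.19 ± 0.06 (SE, adjusted p = 0.090).

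Cebpb, a C/EBP partner of Atf4, went the other way. It was at 37.6, 38.7, 41.7, 39.4 and 35.8 FPKM with GW3965, 43.0, 41.1, 41.5, 46.3 and 44.2 FPKM with 25HC, 12.8, 42.4, 46.5, 48.7 and 46.0 FPKM with 25HC3S and 41.1, 47.9, 7.25, 6.37 and 37.3 FPKM in Vehicle. In the 16 libraries Cebpb was lower with GW3965, at -0.16 ± 0.05 (SE, adjusted p = 0.035) against 25HC and -0.24 ± 0.05 (SE, adjusted p = 0.0025) against 25HC3S, and against Vehicle the difference was -0.02 ± 0.06 (SE, adjusted p = 0.90). With all 20 libraries the difference from 25HC3S had the other sign, at 0.11 ± 0.46 (SE, adjusted p = 0.96), and that from Vehicle was 0.87 ± 0.46 (SE, adjusted p = 0.19). Cebpb overlaps Tmem189 on the opposite strand at a mean of 10.1 FPKM. Atf5 and Cebpg, the remaining bZIP factors, were called in no comparison; without the 4 libraries Atf5 ranged over 163 to 191 FPKM and Cebpg over 11.3 to 13.5 FPKM.

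**Figure D2:**
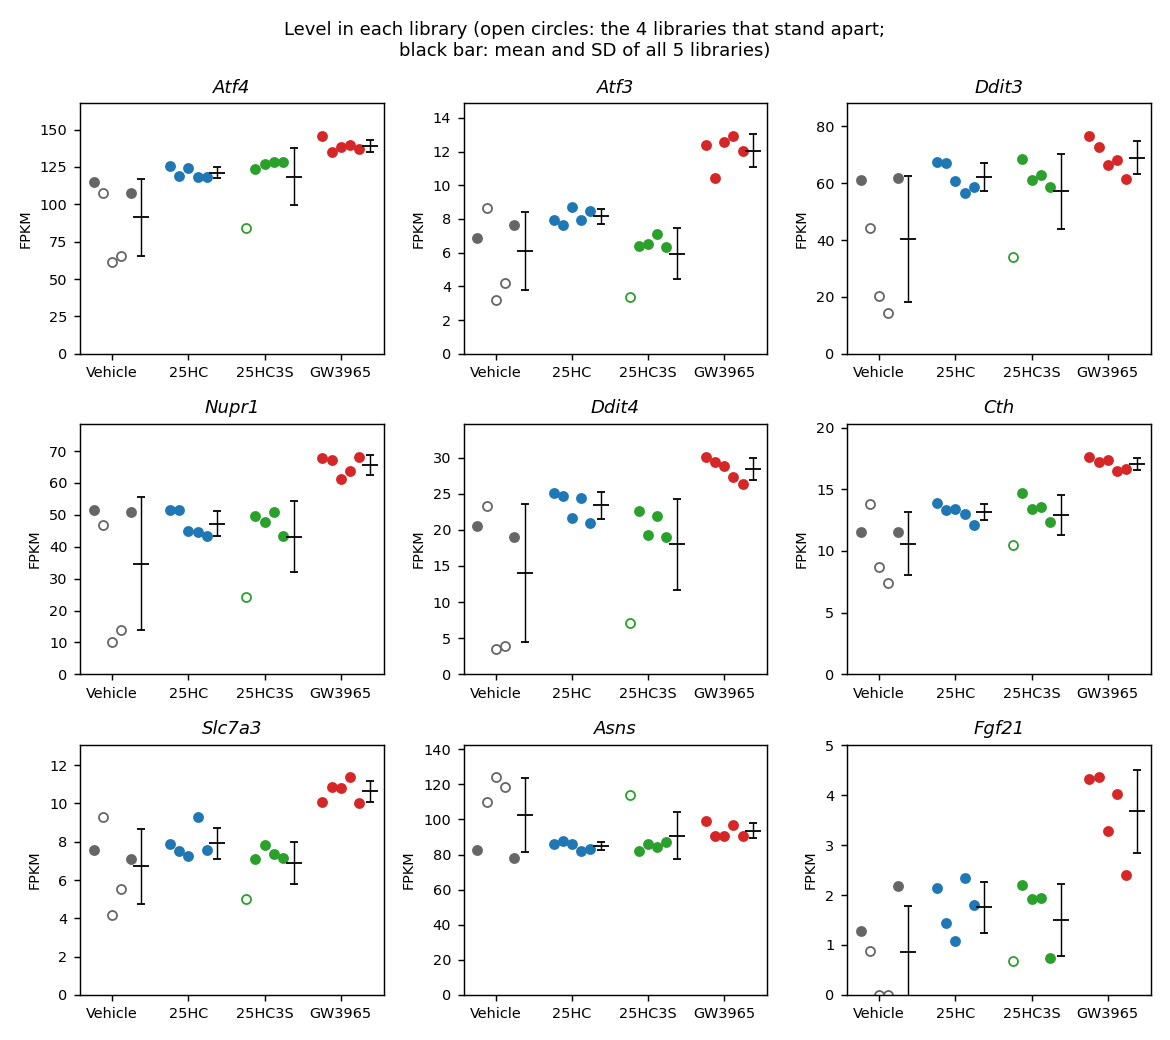
Level in FPKM of 9 members in each of the 20 libraries, by group in replicate order; open circles are the 4 libraries that stand apart and the black bar is the mean and SD of all 5 libraries. GW3965 lies above all other libraries in Atf4, Atf3, Nupr1, Ddit4, Cth, Slc7a3 and Fgf21, and in Asns the open circles are the highest points.

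Of the 5 feedback genes and growth brakes, Ppp1r15a and Ddit4 were called higher with GW3965 against each of the other 3 groups in the 16 libraries, while Eif4ebp1 and Sesn2 were called against Vehicle with all 20 libraries and in none of the other settings just named. Ppp1r15a (GADD34), the phosphatase subunit that reverses eIF2 phosphorylation, was at 23.4, 20.7, 21.8, 23.3 and 19.2 FPKM with GW3965 and 18.3, 19.7, 17.7, 16.4 and 16.0 FPKM with 25HC. It was at 7.91, 19.4, 18.1, 18.2 and 17.1 FPKM with 25HC3S and 16.7, 10.3, 4.49, 4.56 and 15.7 FPKM in Vehicle. The GW3965 range overlapped that of 25HC. Its difference from Vehicle was 1.17 ± 0.29 (SE, adjusted p = 0.020) with all libraries and 0.40 ± 0.08 (SE, adjusted p = 0.0052) without the 4, and 0.28 ± 0.06 (SE, adjusted p = 0.0048) against 25HC in the 16.

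Ddit4 (REDD1), an inhibitor of the growth kinase mTORC1, was at 30.1, 29.3, 28.8, 27.3 and 26.4 FPKM with GW3965, 25.1, 24.6, 21.6, 24.4 and 21.0 FPKM with 25HC, 7.13, 22.6, 19.2, 21.9 and 19.0 FPKM with 25HC3S and 20.6, 23.2, 3.55, 3.93 and 19.0 FPKM in Vehicle. All 5 GW3965 libraries were above the other 15, and the Vehicle group was split, with replicates 3 and 4 far below the other 3. With all libraries the difference from Vehicle was not called at 1.31 ± 0.40 (SE, adjusted p = 0.058), and without the 4 it was 0.50 ± 0.08 (SE, adjusted p = 0.00083). Against 25HC it was 0.27 ± 0.06 (SE, adjusted p = 0.0062) and against 25HC3S 0.44 ± 0.06 (SE, adjusted p = 0.00012) in the 16 libraries.

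Eif4ebp1, which blocks the cap-binding translation factor, was at 60.6, 56.4, 60.5, 54.4 and 52.3 FPKM with GW3965, 52.9, 50.03, 52.0, 49.4 and 52.4 FPKM with 25HC, 22.9, 51.7, 53.6, 54.5 and 46.8 FPKM with 25HC3S and 52.1, 26.3, 19.4, 17.8 and 45.9 FPKM in Vehicle. Sesn2, a leucine sensor that restrains mTORC1, was at 23.3, 24.6, 22.4, 21.6 and 19.5 FPKM with GW3965, 20.2, 21.3, 21.2, 20.0 and 19.0 FPKM with 25HC, 19.7, 21.4, 21.6, 20.8 and 21.1 FPKM with 25HC3S and 20.2, 17.2, 17.1, 16.0 and 19.4 FPKM in Vehicle. In both genes GW3965 overlapped the oxysterol groups. The difference from Vehicle went from 0.92 ± 0.25 (SE, adjusted p = 0.037) to 0.21 ± 0.07 (SE, adjusted p = 0.072) for Eif4ebp1 and from 0.30 ± 0.07 (SE, adjusted p = 0.015) to 0.16 ± 0.06 (SE, adjusted p = 0.17) for Sesn2 when the 4 libraries were left out, which ended both calls. Chac1, which breaks down glutathione, was at 35.0 to 48.7 FPKM in the 16 libraries and 13.4 to 35.4 FPKM in the 4, and was called in no comparison.

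**Figure D3:**
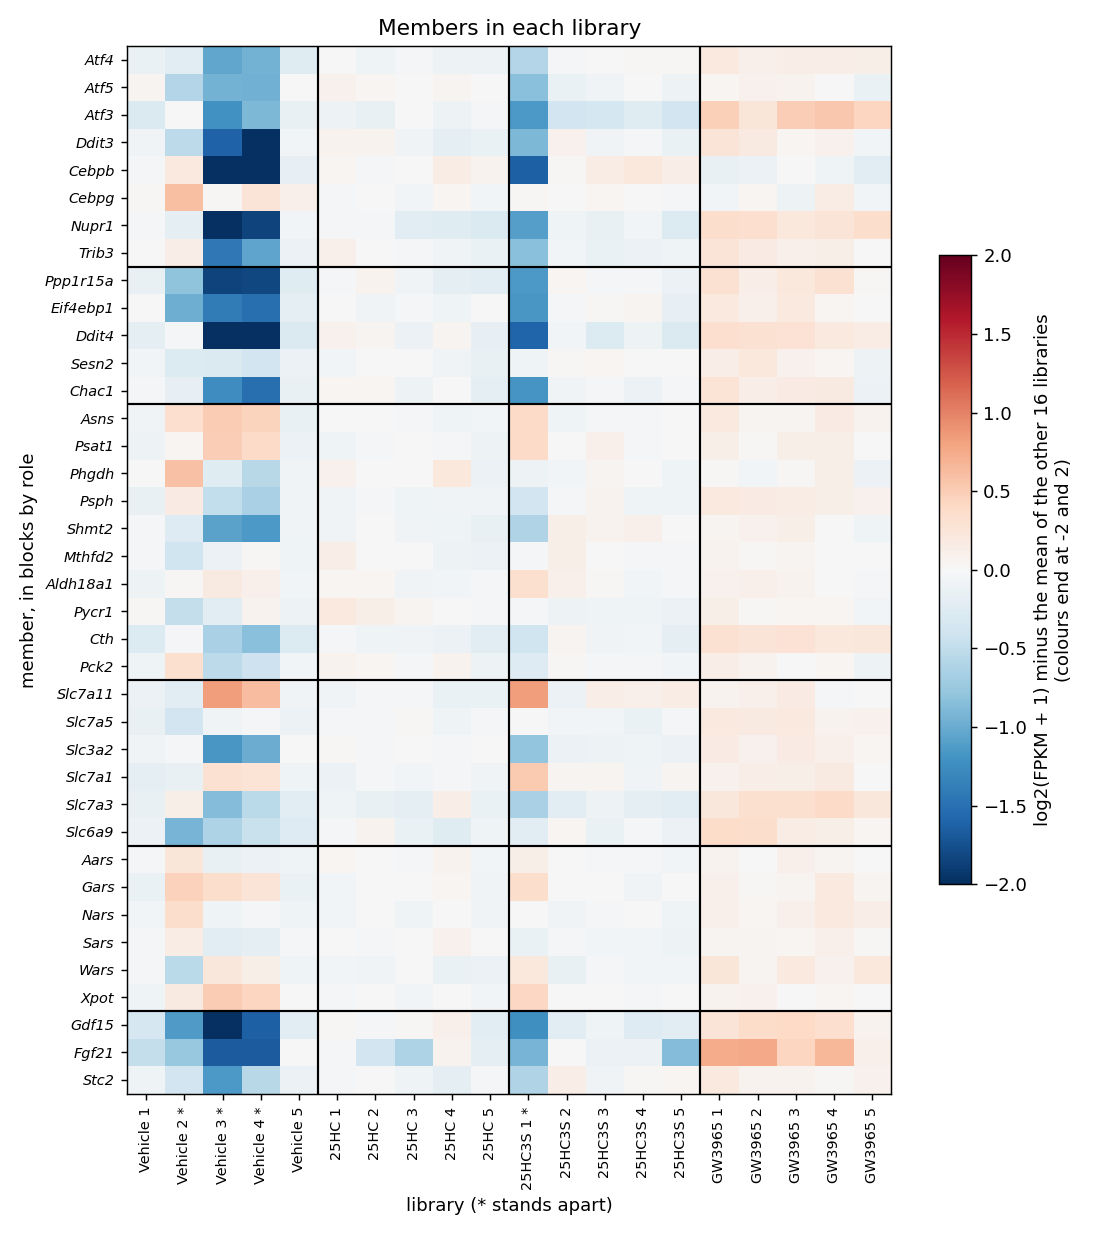
log2(FPKM + 1) of the 38 members (in blocks by role) in each of the 20 libraries, minus the mean of the 16 libraries other than the 4 marked with an asterisk. The GW3965 columns are red in most rows, while Vehicle 3, Vehicle 4 and 25HC3S 1 are blue in most rows and red in others, among them Asns, Psat1, Aldh18a1, Slc7a11, Slc7a1, Gars, Wars and Xpot.

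Some of the 10 synthesis enzymes were called: in the 16 libraries 4 were called higher with GW3965 than with Vehicle (Asns, Psat1, Psph and Cth), 4 than with 25HC (the same genes) and 3 than with 25HC3S (without Psat1), and 0 were lower. Cth, which releases cysteine from cystathionine, was at 17.6, 17.2, 17.4, 16.5 and 16.6 FPKM with GW3965 and 13.9, 13.3, 13.4, 13.0 and 12.1 FPKM with 25HC. It was at 10.4, 14.7, 13.4, 13.5 and 12.4 FPKM with 25HC3S and 11.5, 13.8, 8.68, 7.43 and 11.5 FPKM in Vehicle. GW3965 was above all other libraries, by 0.67 ± 0.12 (SE, adjusted p = 0.0016) against Vehicle with all libraries and 0.53 ± 0.06 (SE, adjusted p = 2.0e-05) without the 4. Of the enzymes, Cth alone was called with all 20 libraries, in that comparison.

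Asns, which makes asparagine and is a classic Atf4 target, was at 99.4, 90.3, 90.4, 97.0 and 90.8 FPKM with GW3965, 86.0, 87.6, 85.8, 82.1 and 83.2 FPKM with 25HC, 114, 82.2, 85.9, 84.2 and 87.3 FPKM with 25HC3S and 82.4, 109.7, 124, 119 and 78.0 FPKM in Vehicle. Here the 4 libraries that stand apart were the highest of all 20, so that the difference of GW3965 from Vehicle was -0.11 ± 0.11 (SE, adjusted p = 0.51) with them and 0.22 ± 0.04 (SE, adjusted p = 0.0044) without them. In the 16 libraries every GW3965 library was above every other, by 0.14 ± 0.03 (SE, adjusted p = 0.011) against 25HC. Psph, the last enzyme of serine synthesis, was at 15.7, 15.4, 15.2, 14.9 and 14.6 FPKM with GW3965, 12.9, 13.4, 12.9, 12.9 and 12.9 FPKM with 25HC, 10.3, 13.2, 14.4, 12.8 and 12.8 FPKM with 25HC3S and 12.2, 15.4, 9.46, 8.34 and 12.9 FPKM in Vehicle. Its difference from Vehicle was 0.38 ± 0.11 (SE, adjusted p = 0.053) with all libraries and 0.25 ± 0.04 (SE, adjusted p = 0.0019) without the 4, and a transcript of Cct6a on the opposite strand overlaps it at a mean of 46.0 FPKM. Psat1, the enzyme before Psph in serine synthesis, was at 59.5, 55.9, 59.9, 59.9 and 55.1 FPKM with GW3965, 51.9, 54.4, 54.9, 53.8 and 51.5 FPKM with 25HC, 72.2, 55.4, 59.4, 53.5 and 55.2 FPKM with 25HC3S and 51.5, 56.4, 77.5, 72.2 and 50.8 FPKM in Vehicle. With all 20 libraries its difference from Vehicle was -0.06 ± 0.11 (SE, adjusted p = 0.67). Its libraries were close together apart from Vehicle replicates 3 and 4 and 25HC3S replicate 1, which were high, and without the 4 GW3965 was above Vehicle by 0.18 ± 0.04 (SE, adjusted p = 0.021) and above 25HC by 0.12 ± 0.03 (SE, adjusted p = 0.025).

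The other 6 enzymes were called in none of the 6 comparisons with either set of libraries. Phgdh, the first enzyme of serine synthesis, was at 85.7 to 108 FPKM in the 16 libraries, and Pck2, a mitochondrial enzyme of phosphoenolpyruvate synthesis, at 32.8 to 39.0 FPKM. Shmt2 and Mthfd2, of mitochondrial folate metabolism, were at 51.8 to 62.3 and 28.2 to 33.9 FPKM. Aldh18a1 and Pycr1, of proline synthesis, were at 56.5 to 65.0 and 15.8 to 19.9 FPKM. Their differences between GW3965 and Vehicle without the 4 libraries were 0.03 for Phgdh, 0.10 for Pck2, 0.08 for Shmt2, 0.09 for Mthfd2, 0.12 for Aldh18a1 and 0.07 for Pycr1. Shmt2 overlaps Ndufa4l2 on the opposite strand at a mean of 92.5 FPKM.

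Of the 6 transporters, 5 were called higher with GW3965 than with Vehicle in the 16 libraries, 5 than with 25HC and 4 than with 25HC3S, and 0 were lower. Slc7a3, a carrier of cationic amino acids, was at 10.1, 10.8, 10.8, 11.4 and 10.0 FPKM with GW3965 and 7.91, 7.52, 7.24, 9.32 and 7.59 FPKM with 25HC. It was at 5.00, 7.12, 7.82, 7.38 and 7.17 FPKM with 25HC3S and 7.56, 9.28, 4.17, 5.52 and 7.12 FPKM in Vehicle. GW3965 lay above all 15 others, with a difference from Vehicle of 0.63 ± 0.14 (SE, adjusted p = 0.011) with all libraries and 0.48 ± 0.07 (SE, adjusted p = 0.00047) without the 4. Against 25HC3S it was called with both sets, at 0.57 ± 0.14 (SE, adjusted p = 0.020) and 0.47 ± 0.06 (SE, adjusted p = 2.2e-05).

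Slc7a5 (LAT1) and Slc3a2 are the light and heavy chains of a carrier of large neutral amino acids such as leucine. Slc7a5 was at 89.8, 89.5, 89.8, 82.4 and 83.3 FPKM with GW3965, 76.8, 76.9, 79.5, 73.6 and 76.5 FPKM with 25HC, 78.7, 75.6, 75.6, 71.2 and 76.97 FPKM with 25HC3S and 71.0, 60.1, 75.1, 77.5 and 72.2 FPKM in Vehicle. Slc3a2 was at 78.4, 73.9, 78.7, 74.9 and 71.9 FPKM with GW3965, 71.0, 67.6, 69.5, 67.7 and 70.2 FPKM with 25HC, 40.0, 64.2, 64.7, 65.6 and 64.3 FPKM with 25HC3S and 66.5, 68.1, 30.4, 34.4 and 69.3 FPKM in Vehicle. Both had all 5 GW3965 libraries above the other 15, but Vehicle replicates 3 and 4 were low in Slc3a2 and near the rest in Slc7a5. The difference from Vehicle was 0.29 ± 0.06 (SE, adjusted p = 0.0088) with all libraries and 0.28 ± 0.04 (SE, adjusted p = 0.00064) without the 4 for Slc7a5, and 0.57 ± 0.20 (SE, adjusted p = 0.078) and 0.15 ± 0.04 (SE, adjusted p = 0.018) for Slc3a2.

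Slc6a9, the glycine transporter GlyT1, was at 20.6, 20.3, 17.5, 17.2 and 16.3 FPKM with GW3965, 15.5, 16.6, 14.3, 13.1 and 14.7 FPKM with 25HC, 13.4, 16.2, 14.3, 15.5 and 14.4 FPKM with 25HC3S and 14.5, 7.81, 9.88, 11.3 and 13.0 FPKM in Vehicle. It was called higher than Vehicle with all libraries (0.68 ± 0.12 SE, adjusted p = 0.0015) and without the 4 (0.39 ± 0.09 SE, adjusted p = 0.014), although its GW3965 libraries overlapped those of 25HC. Slc6a9 overlaps B4galt2 on the opposite strand at a mean of 8.73 FPKM, and the strand setting of the counting is unknown here. Slc7a1, a second carrier of cationic amino acids, was at 18.1, 18.6, 18.4, 19.2 and 16.8 FPKM with GW3965 and 14.8, 15.1, 21.0, 20.7 and 15.8 FPKM in Vehicle. It was at 15.4, 16.5, 16.2, 16.4 and 16.0 FPKM with 25HC and 24.8, 17.7, 17.5, 16.0 and 17.6 FPKM with 25HC3S. The 25HC3S libraries overlapped those of GW3965. In Slc7a1 the difference from Vehicle was 0.07 ± 0.11 (SE, adjusted p = 0.65) with all libraries and 0.23 ± 0.05 (SE, adjusted p = 0.0081) without the 4. Slc7a11, the cystine importer, was the lowest of the transporters at 1.39 to 1.95 FPKM in the 16 libraries and 1.28 to 3.69 FPKM in the 4, and was called in no comparison.

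The differences were small for tRNA charging, where 3 of 6 members were called higher with GW3965 than with Vehicle in the 16 libraries (Gars, Nars and Wars) and 0 with all 20. Wars, the tryptophan tRNA synthetase, was at 37.0, 32.6, 35.7, 33.1 and 36.5 FPKM with GW3965, 29.97, 29.8, 31.3, 28.3 and 28.9 FPKM with 25HC, 36.3, 28.2, 30.4, 30.2 and 29.95 FPKM with 25HC3S and 30.8, 21.2, 36.9, 33.8 and 29.3 FPKM in Vehicle. In the 16 libraries every GW3965 library was above the rest, by 0.23 ± 0.04 (SE, adjusted p = 0.00092) against 25HC and 0.21 ± 0.05 (SE, adjusted p = 0.021) against Vehicle. Nars, the asparagine tRNA synthetase, was at 162, 156, 162, 172 and 166 FPKM with GW3965, 146, 150.3, 142, 152 and 144 FPKM with 25HC, 151, 144, 148, 149.6 and 143 FPKM with 25HC3S and 145, 194, 143, 148 and 142 FPKM in Vehicle. Vehicle replicate 2 was the highest of all 20 for Nars, and without the 4 libraries the difference was 0.19 ± 0.04 (SE, adjusted p = 0.0060) against Vehicle and 0.16 ± 0.03 (SE, adjusted p = 0.0017) against 25HC.

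Gars, the glycine tRNA synthetase, was at 114, 107, 109.6, 121 and 109 FPKM with GW3965 and 95.7, 146, 135, 126 and 96.2 FPKM in Vehicle, with Vehicle replicates 2, 3 and 4 the highest of the group. It was at 101, 106, 105, 108 and 100 FPKM with 25HC, which overlapped GW3965, and 135, 106, 106, 100 and 105 FPKM with 25HC3S. Its difference from Vehicle was -0.07 ± 0.11 (SE, adjusted p = 0.63) with all libraries and 0.22 ± 0.04 (SE, adjusted p = 0.0051) without the 4. Sars, the serine tRNA synthetase, was at 56.8, 56.3, 55.9, 58.5 and 55.6 FPKM with GW3965 and 49.5, 53.1, 52.2, 52.5 and 50.8 FPKM with 25HC3S. It was at 54.2, 53.6, 54.4, 57.9 and 54.1 FPKM with 25HC, which overlapped GW3965, and 53.0, 60.2, 46.8, 47.3 and 52.8 FPKM in Vehicle. Sars was higher with GW3965 than with 25HC3S by 0.12 ± 0.03 (SE, adjusted p = 0.0057) in the 16 libraries. Aars, the alanine tRNA synthetase, at 45.9 to 52.0 FPKM, and Xpot, which carries tRNA out of the nucleus, at 46.6 to 52.4 FPKM in the 16 libraries, were called in no comparison.

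**Figure D4:**
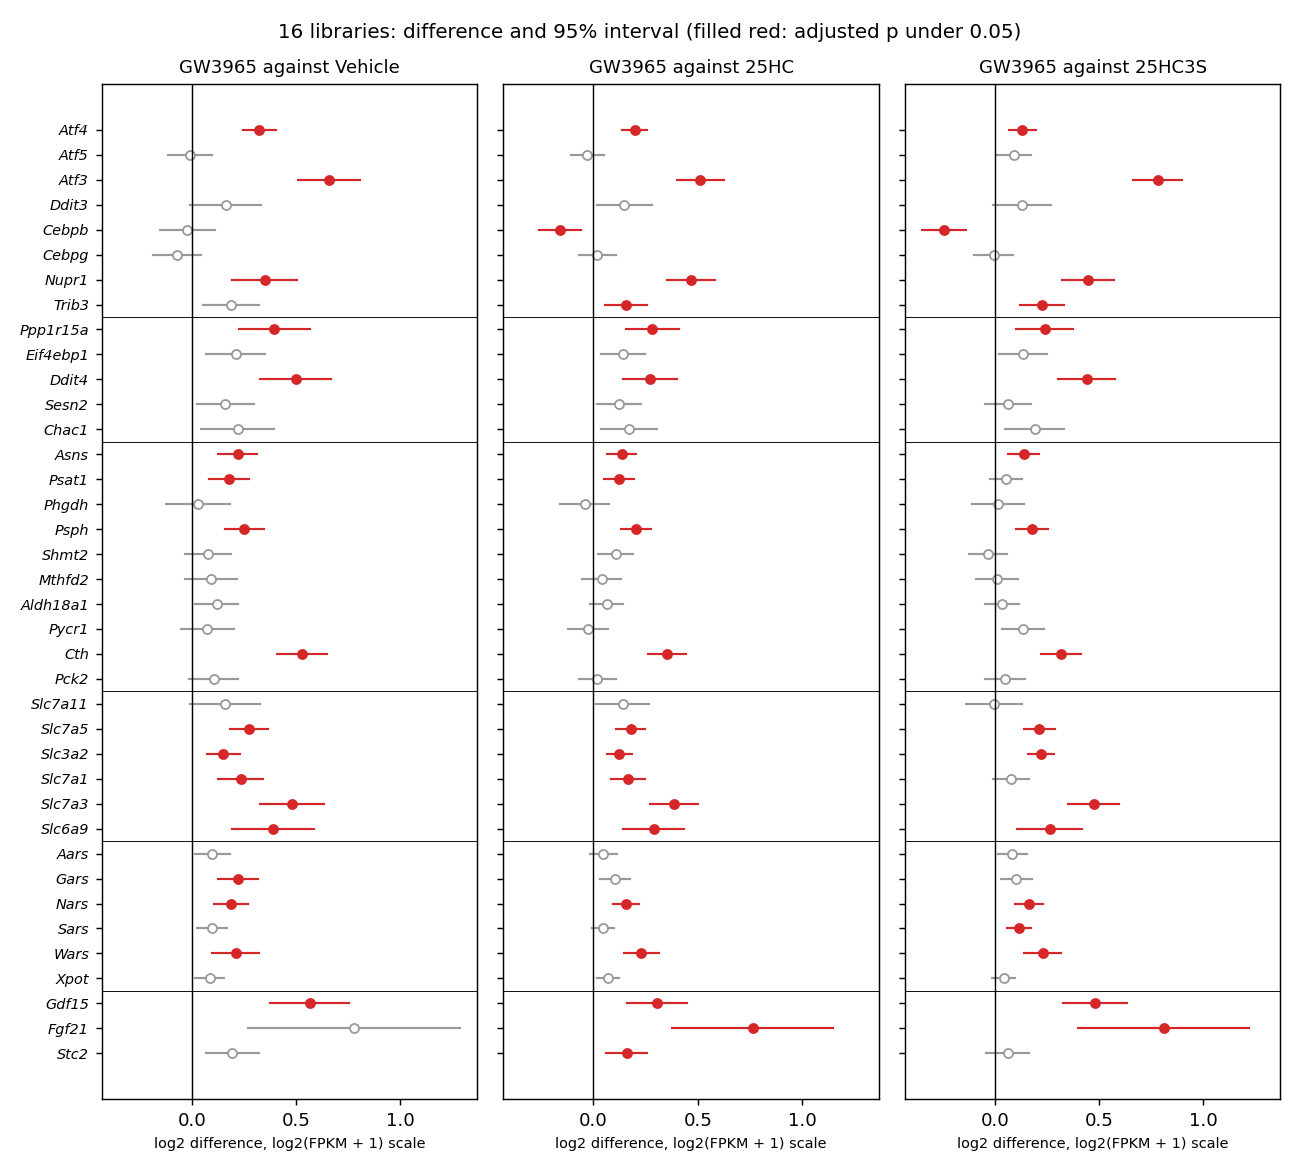
Difference on the log2(FPKM + 1) scale between GW3965 and each of the other 3 groups for the 38 members in the 16 libraries; points are limma estimates, bars are 95% intervals and filled red points have an adjusted p under 0.05. There are 18 red points against Vehicle, 21 against 25HC and 19 against 25HC3S, and Cebpb is the lone red point left of 0 in the last 2 panels.

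The 3 secreted factors, by which stressed cells signal to other cells and tissues, included the largest differences of GW3965 from Vehicle with all libraries. Gdf15 was at 8.76, 9.58, 9.80, 9.28 and 7.53 FPKM with GW3965, 7.30, 6.94, 7.32, 7.79 and 6.08 FPKM with 25HC, 2.50, 6.01, 6.71, 5.81 and 6.05 FPKM with 25HC3S and 5.44, 2.73, 0, 1.62 and 6.02 FPKM in Vehicle. It is listed at 0 in Vehicle replicate 3, and GW3965 exceeded Vehicle by 1.56 ± 0.37 (SE, adjusted p = 0.015) with all libraries and by 0.57 ± 0.09 (SE, adjusted p = 0.00072) without the 4. Fgf21 was at 4.32, 4.36, 3.28, 4.03 and 2.40 FPKM with GW3965, 2.13, 1.44, 1.08, 2.34 and 1.796 FPKM with 25HC, 0.675, 2.20, 1.92, 1.94 and 0.748 FPKM with 25HC3S and 1.28, 0.875, 0, 0 and 2.18 FPKM in Vehicle. It rests on few fragments: 39 to 75 per GW3965 library, 20 to 40 with 25HC, 10 to 42 with 25HC3S and 0 to 38 in Vehicle, the 0 being replicates 3 and 4. In FPKM all 5 GW3965 libraries were above the other 15, but narrowly. The lowest, replicate 5, was at 2.40 FPKM on 39 fragments, and 25HC replicate 4 was at 2.34 FPKM on 40 fragments. The call against Vehicle was made with all libraries (1.45 ± 0.28 SE, adjusted p = 0.0037) and lost without the 4 (0.78 ± 0.24 SE, adjusted p = 0.063), and those against 25HC (0.76 ± 0.18 SE, adjusted p = 0.010) and 25HC3S (0.81 ± 0.19 SE, adjusted p = 0.0074) were made in the 16 libraries.

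Stc2, a secreted glycoprotein, was at 6.72, 6.03, 6.06, 5.83 and 6.11 FPKM with GW3965, 5.58, 5.70, 5.32, 4.90 and 5.51 FPKM with 25HC, 3.44, 6.36, 5.40, 5.81 and 5.86 FPKM with 25HC3S and 5.31, 4.13, 2.04, 3.56 and 5.18 FPKM in Vehicle. The GW3965 libraries overlapped the 25HC3S group. The difference from Vehicle was called with all libraries (0.55 ± 0.16 SE, adjusted p = 0.045) and lost without the 4 (0.19 ± 0.06 SE, adjusted p = 0.063), while that from 25HC was called in the 16 (0.16 ± 0.05 SE, adjusted p = 0.029).

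With 25HC at 20 µM no member was called against Vehicle. With all libraries, 0 of 38 were called in limma, where 0.0392% of tested genes were, although 21 had an unadjusted p under 0.05. Without the 4 libraries, 0 were called, where 0.0235% of tested genes were, and 7 had an unadjusted p under 0.05. The median difference of the members was 0.22 with all libraries and 0.05 without the 4. Leaving out Vehicle replicate 3 or 4 alone lowered it to 0.17 or 0.20, while leaving out replicate 2 alone raised it to 0.28. Without Vehicle replicate 1 alone 14 members were called, 12 higher and 2 lower, where 20.9% of tested genes were; without replicate 5 it was 9 members, 8 higher and 1 lower, where 16.4% were. The largest differences in the 16 libraries belonged to Gdf15 at 0.26 (95% interval 0.07 to 0.45, adjusted p = 0.78) and Ddit4 at 0.23 (95% interval 0.06 to 0.39, adjusted p = 0.80). For Atf4 it was 0.12 with an interval of 0.05 to 0.20. These intervals do not show that the levels are alike.

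25HC3S at the same dose gave 0 called members with all libraries in limma, where 1.61% of tested genes were called, and 11 members had an unadjusted p under 0.05. Without the 4 libraries 1 of 38 was called, where 3.95% of tested genes were. That gene was Atf4, higher than Vehicle by 0.19 ± 0.04 (SE, adjusted p = 0.010), with its 4 remaining 25HC3S libraries at 124 to 128 FPKM above Vehicle replicates 1 and 5 at 115 and 107 FPKM. Cth followed at 0.21 (adjusted p = 0.056) and Cebpb at 0.22 (adjusted p = 0.068), both short of the limit. The members' median was 0.13 with all libraries and 0.06 without the 4. Leaving out Vehicle replicate 1 alone gave 2 other calls, Sesn2 and Slc6a9, where 4.88% of tested genes were called, a share like that of the members.

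25HC3S and 25HC, which differ by the sulfate group and were given at the same dose and time, gave 0 called members with all libraries in limma, where 0.816% of tested genes were called, and 1 member had an unadjusted p under 0.05. Without the 4 libraries 1 of 38 was called, where 7.18% of tested genes were, so the share of members was below the background. That gene was Atf3, lower with 25HC3S, at -0.27 ± 0.06 (SE, adjusted p = 0.0075) with a 95% interval of -0.39 to -0.15. The nearest others were Pycr1 at -0.16 (interval -0.26 to -0.06, adjusted p = 0.056), Shmt2 at 0.14 (interval 0.05 to 0.23, adjusted p = 0.059) and Slc3a2 at -0.10 (interval -0.16 to -0.03, adjusted p = 0.062). For Atf4 the difference was 0.07 with an interval of 0.00 to 0.13, for Ddit3 0.02 with -0.12 to 0.16 and for Asns 0.00 with -0.08 to 0.07. These bounds limit a difference but do not show that the compounds act alike. The comparisons of the 3 compounds with Vehicle share the Vehicle libraries.

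The 4 left-out libraries had levels of their own in many members. Vehicle replicates 3 and 4 were below all 18 other libraries in 21 of the 38 members, where 20.1% of tested genes were. Relative to the mean of the 16 other libraries, the median over the members was -0.57 and -0.54 in Vehicle replicates 3 and 4. It was -0.32 in 25HC3S replicate 1 and -0.09 in Vehicle replicate 2. By this measure Vehicle replicate 2 did not differ from the kept Vehicle replicates 1 and 5, at -0.08 and -0.10. GW3965 libraries were at 0.016 to 0.18 on the same scale. The shift was not the same in every member: Cebpb was at 7.25 and 6.37 FPKM in Vehicle replicates 3 and 4 against 35.8 to 48.7 FPKM in the 16, while Slc7a11 was at 3.69 and 3.03 FPKM against 1.39 to 1.95 FPKM. Xpot was likewise high there, at 70.6 and 67.0 FPKM against 46.6 to 52.4 FPKM. Vehicle replicates 3 and 4 also had the highest mitochondrial shares and the fewest genes with exactly 1 fragment, and the part of these measures in the members' levels was not tested.

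**Figure D5:**
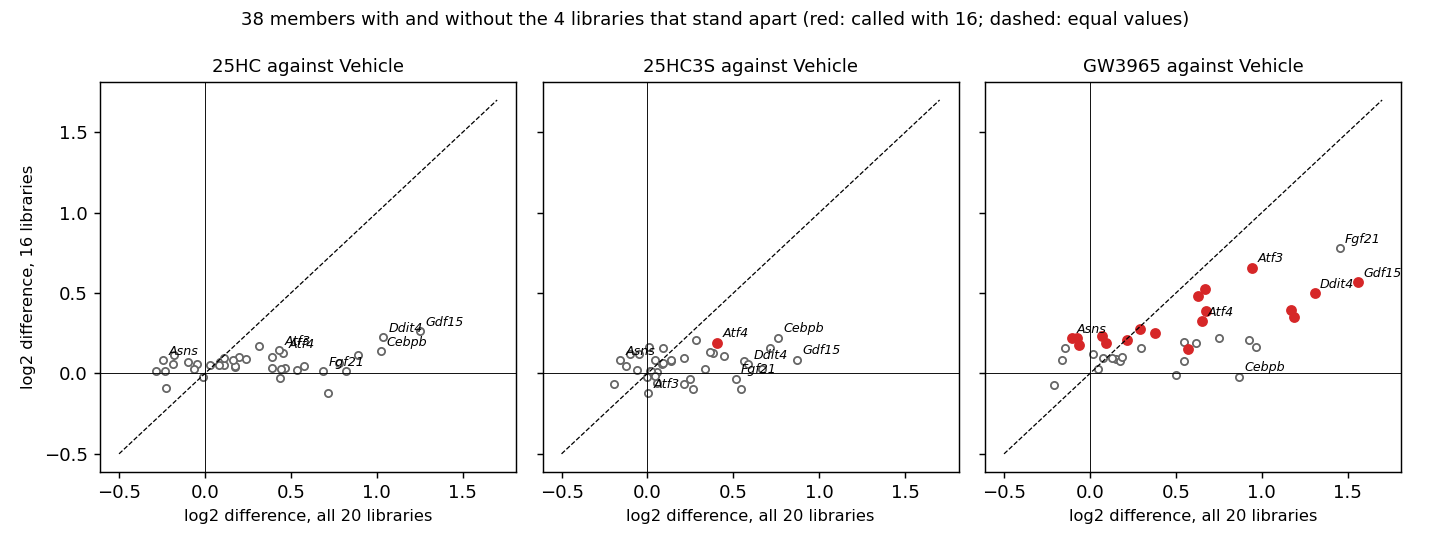
Difference from Vehicle on the log2(FPKM + 1) scale for the 38 members with all 20 libraries (x axis) and with 16 (y axis), for 25HC, 25HC3S and GW3965; red points are called with 16 libraries and the dashed line marks equal values. Most points to the right of 0 lie below the line, and the medians fell from 0.22, 0.13 and 0.44 to 0.05, 0.06 and 0.19.

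Other genes of the pathway, from lists outside the 38 (except that Slc7a11 is also listed as an NRF2 target), are given here for the 16 libraries. Over all tested genes in these libraries, 6.3% were higher and 6.82% lower with GW3965 than with 25HC, 3.98% and 3.79% than with Vehicle, and 9.27% and 8.59% than with 25HC3S. In lists of this size, counts of 1 or 2 called genes lie too near these shares to be read as a result. Of 17 stress sensors and parts of the eIF2 machinery, 0 were called higher and 1 lower with GW3965 than with 25HC (Eif2ak2, the sensor of double-stranded RNA, at -0.20). Against Vehicle 2 were higher (Eif2b5 at 0.20 and Impact at 0.17) and 1 lower (Eif2ak2 at -0.23), and against 25HC3S 0 were called. Of 23 other amino acid genes, 4 were higher and 1 lower with GW3965 than with 25HC, with the glutamine carrier Slc1a5 at 0.41, Got1 at 0.18, Slc1a4 at 0.17 and Shmt1 of cytosolic folate metabolism at -0.25. Of 16 other cytosolic tRNA synthetases, 5 were higher and 0 lower than with 25HC, with Tars at 0.14, Iars and Rars at 0.12 and Lars at 0.11 among them. Of the 17 mitochondrial synthetases 0 were called in any of the 3 comparisons of GW3965, whereas with all 20 libraries Lars2 was lower than Vehicle at -1.05.

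Lists next to the pathway are set against the same shares. Of 24 other stress response genes, 9 were higher and 2 lower with GW3965 than with 25HC, led by the vessel growth factor Vegfa at 0.52, the autophagy adaptor Sqstm1 at 0.28, Angpt4 at -0.26 and the death receptor Tnfrsf10b at 0.20. Of 14 targets of NRF2, the regulator of antioxidant genes, 6 were higher and 0 lower, with Me1 at 0.42, Tkt at 0.34, G6pdx at 0.18 and Gclm at 0.16; Hmox1 is in both lists, and the member Slc7a11, not called, is among the 14. Of 17 chaperones and folding enzymes of the endoplasmic reticulum, which mark the unfolded protein response, 0 were higher and 6 lower than with 25HC, with Pdia6 at -0.23, Pdia4 and Sdf2l1 at -0.21 and Pdia3 at -0.17. Against Vehicle the same list had 1 higher (Sel1l at 0.13) and 0 lower, and against 25HC3S 1 higher (Edem1 at 0.14) and 2 lower (Sdf2l1 at -0.18 and Pdia4 at -0.13). Of 8 mitochondrial stress genes 1 was higher than with 25HC, the protease Lonp1 at 0.13, and of 12 mitochondrially encoded genes 0 were called. Of 15 immediate early genes 2 were higher (Klf4 at 0.35 and Dusp1 at 0.17) and 1 lower (Ier5 at -0.31). Against Vehicle, the 16 libraries gave 9 of 24 other stress genes higher, 5 of 14 NRF2 targets (Me1 at 0.48 the largest), 4 of 23 amino acid genes and 4 of 16 cytosolic synthetases. In these lists 1 gene was lower, Shmt1 at -0.38. Against 25HC3S, in the same order, 9, 7, 5 and 2 were higher and 2, 1, 4 and 1 lower. Of 15 immediate early genes 2 were higher and 4 lower than with 25HC3S, with Fos at -0.52 and Egr1 at -0.50. With all 20 libraries, 1 gene of these lists was called against 25HC, Me1 at 0.42. Against Vehicle, all 20 libraries gave 6 of 24 other stress genes higher, 5 of 14 NRF2 targets, 3 of 23 amino acid genes and 2 of 15 immediate early genes, where 3.49% of tested genes were higher. Against 25HC3S they gave Slc1a5 and Tkt at 0.55, Klf4 at 0.52, Me1 at 0.46, Cdkn1a at 0.36 and Sqstm1 at 0.28, where 2.51% were higher. With 25HC 0 genes of these lists were called against Vehicle in limma with either set. For 25HC3S against Vehicle in the 16 libraries, where 3.95% of tested genes were called, 2 of 15 immediate early genes were higher (Fos at 0.43 and Btg2 at 0.31) and 2 lower (Klf2 at -0.56 and Klf4 at -0.20). The other lists gave Slc38a2 at 0.21, Ero1l at 0.25, Cebpd at 0.29, Gclc at 0.19 and Eif2b5 at 0.20. Against 25HC, where 7.18% were called, 4 of the 15 were higher and 2 lower, led by Egr1 at 0.55 and Klf2 at -0.48. Of the other lists, 3 of 23 amino acid genes and 2 of 24 other stress genes were higher, and 1 of 14 NRF2 targets was lower.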

How the data were processed

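RNA of 20 libraries was measured, 5 in each of 4 groups named by the labels' treatment field. The authors deposited one table of FPKM per gene; HISAT2 2.0.5 and CASAVA 1.8 are named, per the submitters' processing notes. For the counting program, strand setting, annotation and build, the sources used here give nothing. Of 54532 gene identifiers, 54495 were in GENCODE M21 (GRCm38) and 98.3% of those had the same position, as had 37 of the 38 members. The deposited FPKM times gene length came out within 0.02 of whole fragments after scaling, which gave the fragments per library; these were used for description only, since FPKM is not a count. FPKM removes total depth but not a change in composition.

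Genes at 1 FPKM or more in at least 5 libraries were tested (12752). limma 3.58.1 (R 4.3.3) was fitted to log2(FPKM + 1) with 1 mean per group over all 20 libraries, with trended empirical Bayes and two-sided contrasts, and p-values were adjusted by Benjamini-Hochberg over all tested genes. A difference on this scale understates the change of low genes. The fit was repeated without Vehicle replicates 2, 3 and 4 and 25HC3S replicate 1. The 6 comparisons are those among the 4 groups. Alternatives were another pseudocount, no filter, median-of-ratios or TPM scaling, only the groups compared, array weights, a replicate block and leaving out each library. On data simulated for GW3965 against Vehicle with 12752 genes, 46 of 50 genes changed by 0.58 and 46 of 50 changed by 1 on the log2 scale were found, with 11 false calls. The simulated spread of each gene was that of the 16 libraries, whereas the real fit holds all 20. These shares therefore do not describe the real fit, in which Ddit3 at 0.97 and Ddit4 at 1.31 were not called.

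Values in every library are given for members called in any comparison, at most 4 per role and comparison by size, and for Atf4, Ddit3, Asns and Trib3. Of the pathway lists, called genes are named for some comparisons only, at most 4 per list and comparison by size. A list gene that is not named may therefore have been called. The members and lists were chosen with earlier results of these data known. Promoters are from RefSeq.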

Additional observations from a re-analysis of the deposited data

Results flagged for a closer look

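In groups of 5 libraries, a library is listed here where its gap to the nearest other exceeds 0.71 of the range of the group (Dixon's test at 95%, on log2(FPKM + 1)). This held in 25 of 152 combinations of member and group (16.4%), where chance gives about 1 in 20, and 22 of the 25 were 25HC3S replicate 1.

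In 25HC3S replicate 1, 17 members were far below the other 25HC3S libraries. Among the regulators these were Atf4 at 84.2 FPKM, Atf5 at 99.97, Atf3 at 3.34, Ddit3 at 34.1, Cebpb at 12.8, Nupr1 at 24.2 and Trib3 at 34.8 FPKM. Among the feedback genes they were Ppp1r15a at 7.91, Eif4ebp1 at 22.9, Ddit4 at 7.13 and Chac1 at 17.1 FPKM. The others were Shmt2 at 37.7, Pck2 at 29.3, Slc3a2 at 40.03, Slc7a3 at 5.00, Gdf15 at 2.50 and Stc2 at 3.44 FPKM. In the same library 5 members were far above the rest: Asns at 114, Slc7a11 at 3.68, Slc7a1 at 24.8, Gars at 135 and Xpot at 66.2 FPKM. This library also had a mitochondrial share of 3.14% and 1171 genes with exactly 1 fragment; the part of these in the levels was not tested.

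The other 3 were Psph in 25HC replicate 2 at 13.4 FPKM, Nars in Vehicle replicate 2 at 194 FPKM and Sars in 25HC replicate 4 at 57.9 FPKM, each the highest of its group.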

How the results depend on the processing

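No member called with all 20 libraries changed direction in that comparison under any alternative, but of 60 calls made without the 4 libraries 4 have the other sign with all 20: Asns, Gars and Psat1 against Vehicle and Cebpb against 25HC3S. With only the 2 groups compared, 25HC against Vehicle gave 1 called gene, 25HC3S against Vehicle 23, GW3965 against Vehicle 152 with 0 members, 25HC3S against 25HC 205, GW3965 against 25HC 1427 with 20 members and GW3965 against 25HC3S 1009 with 7. In the same order of comparisons, array weights gave 16, 769 (2 members), 1230 (20 members, median 0.21), 1053 (2), 1676 (17) and 2372 (19). Without the 4 libraries the counts were 3, 504 (1 member), 991 (18, median 0.19), 916 (1), 1674 (21) and 2278 (19). Deviations from the group means correlated at -0.70 to 0.27 in the 30 same-numbered pairs, with 4 pairs over 0.1. In the 120 pairs of other numbers they correlated at -0.68 to 0.63, with 20 pairs over 0.1. These deviations include the 4 libraries that stand apart, so the check cannot exclude a pairing by replicate number. With the replicate block, 25HC against Vehicle gave 1 called gene and GW3965 against Vehicle 544, with 10 members. Leaving out each library in turn gave 1 to 2659 called genes for 25HC against Vehicle with 0 to 14 members, 98 to 622 with 0 to 2 for 25HC3S against Vehicle, 450 to 3247 with 9 to 22 for GW3965 against Vehicle, 60 to 93 for 25HC3S against 25HC and 1 to 2 members for GW3965 against 25HC3S. Of the 15 calls with all libraries, 13 were lost with only the 2 groups compared, 4 without the 4 libraries, 3 each without the filter and with the block, 2 each with the other pseudocount and TPM scaling, 1 with array weights and 0 with median-of-ratios scaling. Without the 4 libraries, 48 of 228 differences, none of them called with all libraries, changed sign. The cause was not tested. Depth limits Fgf21 most, with at most 75 fragments per library.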
